A study of Mus musculus with 6 samples.

Results

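The GIMAP genes, for GTPases of the immunity-associated protein family, were followed here in regulatory T cells that lacked or carried the transcription factor Blimp1. The members were Gimap1, Gimap3, Gimap4, Gimap5, Gimap6, Gimap7, Gimap8 and Gimap9, taken by symbol, with every array probe that the platform annotation gives to one of them. Of these 8 genes 7 had a probe, 12 probes in all, and 6 genes were above background and were tested, among 19057 annotated genes of which 9593 were tested. Gimap3 had no probe under that symbol in the annotation used and was not analysed here. The 6 tested members, Gimap1, Gimap5, Gimap6, Gimap7, Gimap8 and Gimap9, were above background on all 6 arrays, so none of them was kept through 1 group alone.

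The mRNA was measured on Illumina bead arrays in peripherally induced regulatory T cells (pTreg), with 3 CKO arrays and 3 Ctrl arrays. CKO cells came from C57BL/6 mice with both alleles of Prdm1, the gene of Blimp1, floxed and with a CD4-Cre transgene (Prdm1 flox/flox CD4-Cre+), and Ctrl cells from mice with both alleles wild type and the same transgene (Prdm1+/+ CD4-Cre+), and the cells of both groups carried a GFP reporter of Foxp3. Naive CD4+ CD44low GFP- cells from pooled lymph nodes and spleens of donors 8 to 10 weeks old were mixed 1:1, CKO cells with the allotype Thy1.2 and Ctrl cells with Thy1.1, and injected into RAG1-/- mice, which have no T or B cells of their own, and CD4+ GFP+ cells of each allotype were sorted 6 to 8 weeks later. Allotype and genotype cannot be told apart, and since CD4-Cre acts in developing T cells, the naive donor cells had already passed through its activity. The labels call the cells induced in one field and peripheral in another, and name a P+I treatment for replicates 2 and 3 only. Replicate 1 of each group lay on 1 slide and replicates 2 and 3 on the other. The slide and the P+I label therefore cannot be told apart. A replicate number joins a CKO and a Ctrl array that share a date in the labels (2 and 3) or that are the only arrays of their slide (1). The labels do not say which mice a replicate stands for, so p-values measure the spread between these arrays.

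GIMAP proteins are GTPases made mainly by lymphocytes, several of them anchored in the cell's internal membranes, and they are best known for keeping T and B cells alive. Their genes lie side by side in 1 cluster. In rats and mice, loss of Gimap5 depletes T cells, and in mice it also leads to colitis.

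In the RefSeq annotation of mouse the cluster on chromosome 6 runs in the order Gimap8, Gimap9, Gimap4, Gimap6, Gimap7, Gimap1, Gimap5 and Gimap3, with Gimap6 and Gimap3 on the minus strand and the other 6 genes on the plus strand. RefSeq promoter windows, 250 bases before to 50 after a start site on build GRCm38.p6, were matched by symbol for all 8 members, which gave 9 windows since Gimap8 has 2 start sites. The windows shown are those of the 3 genes that differed most between the groups and of Gimap9, which holds the same motif as Gimap5. Each is written 5′ to 3′ along its gene, in lower case, and capitals mark a match to the core of the Blimp1 motif, GAAAGT or its reverse complement ACTTTC.
Gimap6, chr6:48708195-48708494, minus strand: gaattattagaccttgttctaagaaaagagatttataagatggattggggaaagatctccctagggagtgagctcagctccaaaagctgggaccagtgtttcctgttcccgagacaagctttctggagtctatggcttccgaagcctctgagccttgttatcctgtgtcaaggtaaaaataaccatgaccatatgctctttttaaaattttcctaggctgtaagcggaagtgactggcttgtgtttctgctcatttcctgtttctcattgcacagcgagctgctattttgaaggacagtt
Gimap7, chr6:48718371-48718670, plus strand: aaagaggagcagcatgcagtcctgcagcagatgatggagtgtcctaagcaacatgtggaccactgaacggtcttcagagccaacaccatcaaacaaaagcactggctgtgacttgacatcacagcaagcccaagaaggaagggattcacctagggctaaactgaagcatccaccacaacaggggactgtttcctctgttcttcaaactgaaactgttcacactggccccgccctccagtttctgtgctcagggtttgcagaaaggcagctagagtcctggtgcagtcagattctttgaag
Gimap5, chr6:48745947-48746246, plus strand: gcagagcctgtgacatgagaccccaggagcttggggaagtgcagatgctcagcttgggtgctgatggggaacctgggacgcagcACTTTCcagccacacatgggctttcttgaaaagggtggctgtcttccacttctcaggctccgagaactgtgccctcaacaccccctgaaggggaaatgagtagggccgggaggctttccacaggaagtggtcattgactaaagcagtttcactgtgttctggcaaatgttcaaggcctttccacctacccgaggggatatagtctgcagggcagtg
Gimap9, chr6:48675885-48676184, plus strand: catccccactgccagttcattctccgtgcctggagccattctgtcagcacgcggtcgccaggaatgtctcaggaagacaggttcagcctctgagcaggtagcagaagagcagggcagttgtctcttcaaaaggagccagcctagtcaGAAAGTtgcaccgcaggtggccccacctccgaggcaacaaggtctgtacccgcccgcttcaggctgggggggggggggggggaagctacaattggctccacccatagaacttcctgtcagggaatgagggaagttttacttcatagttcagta
Both strands were searched. The core stood in 2 of the 9 windows, 166 bases before the start site of Gimap5 on the opposite strand and 103 bases before that of Gimap9 on the same strand, and in 4709 of 32851 mouse promoter windows (14.3%). A second motif, the forkhead sequence GTAAACA or its reverse complement TGTTTAC, stood in the window of Gimap3 alone among the members, 247 bases before its start site, and in 1199 of all windows (3.65%). The 2 motifs did not overlap in any member's window. The windows of Gimap6 and Gimap7 held neither of these exact sequences. Variants of either motif that differ by a letter were not searched, in these windows or in the counts above. A match of this length is a description of the letters, not a binding site, and these arrays did not measure binding.

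Gimap6 and Gimap7, neighbours in the cluster, were lower in CKO than in Ctrl pTreg cells, Gimap5 was higher, and Gimap1, Gimap8 and Gimap9 differed by less than 1.5-fold. No member passed an adjusted p of 0.05 in limma over the 9593 genes, where 26 genes (0.271%) did. The study's own rule for a changed gene was looser, an unadjusted p under 0.05 with at least 1.5-fold difference. It was met by 3 of the 6 tested members, 2 lower and 1 higher, and no other member had an unadjusted p under 0.05. The same rule was met by 7.42% of all tested genes, 4.34% lower and 3.09% higher in CKO. The CKO and Ctrl arrays did not overlap for 4 of the 6 members (Gimap5, Gimap6, Gimap7 and Gimap8), against 13% of all tested genes. The median log2 fold change, CKO over Ctrl, was -0.34 over the 6 members and 0.02 over all genes. Values below are normalized intensities, a linear brightness for which 6.18 to 9.55 marked background, and the brightness of one gene's probe cannot be set against another's.

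**Figure D1:**
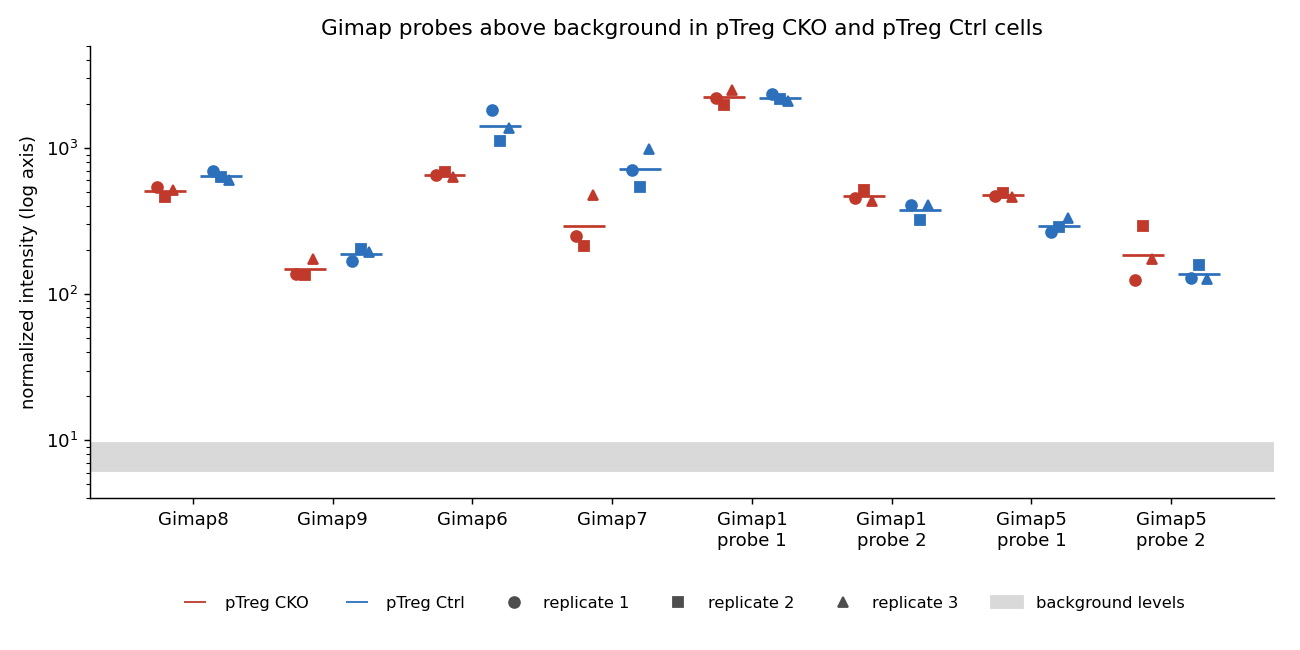
Normalized intensity (log axis) of the 8 Gimap probes above background on each array, CKO left of Ctrl, with replicates as points, the mean of each group's log2 values as a line and the background levels as a grey band. The 3 CKO arrays lie below the 3 Ctrl arrays for Gimap6 and Gimap7 and above them for the brightest Gimap5 probe, and the groups interleave for the brightest Gimap1 probe.

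Gimap6, whose protein binds the autophagy protein GABARAPL2 and has been tied to autophagy in T cells, had intensities of 654.9, 688.9 and 633.4 on the CKO arrays, against 1811.9, 1120.5 and 1378.3 on the Ctrl arrays. The groups did not overlap, and the CKO arrays lay close together while the Ctrl arrays were spread. The means were 659 ± 28 in CKO and 1437 ± 349 in Ctrl (SD, n = 3 each), a 2.14-fold lower level in CKO. The log2 fold change was -1.10 (SE 0.24, 95% interval -1.66 to -0.53) with an adjusted p of 0.18 in limma. Each CKO array was lower than the Ctrl array of its own replicate number, by log2 differences of -1.47, -0.70 and -1.12. The result met the study's rule and did not pass the adjusted threshold, with a block for the replicate number included (adjusted p = 0.062).

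Gimap7, a GTPase that in humans becomes active on pairing with another GIMAP molecule, had intensities of 249.9, 213.6 and 478.6 in CKO, against 708.4, 540.6 and 987.5 in Ctrl. The highest CKO array, replicate 3, stayed below the lowest Ctrl array, replicate 2. In each group replicate 2 was lowest and replicate 3 highest, so the arrays kept the same order in both genotypes. The means were 314 ± 144 in CKO and 746 ± 226 in Ctrl (SD, n = 3 each), a 2.46-fold lower level in CKO, and the log2 fold change was -1.30 (SE 0.37, 95% interval -2.15 to -0.44), adjusted p = 0.29 in limma. The 3 pairs of equal replicate number gave log2 differences of -1.50, -1.34 and -1.04, closer together than the arrays of either group.

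With the replicate number as a block, which takes out what the paired arrays share, the SE of Gimap7 was 0.19 and its adjusted p was 0.030 in limma. In that fit Gimap7 fell in CKO, the 1 member among the 183 genes called (1.91% of those tested). Without both arrays of replicate 1, 2 or 3 the adjusted p of Gimap7 in the blocked fit was 0.13, 0.12 or 0.039 in limma. Its log2 fold change there was -1.2, -1.27 or -1.42, and 3, 9 or 162 of all genes passed. The call was thus lost without replicate 1 or 2, where few genes of any kind passed. The same 3 members met the study's rule in the blocked fit, which 12% of all tested genes met there.

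Gimap5, whose loss depletes T cells in rats and mice, went the other way. Its brighter probe gave 468.8, 491.6 and 464.2 in CKO, against 266.9, 286.7 and 331 in Ctrl, with no overlap. The means were 474.9 ± 14.7 in CKO and 295 ± 32.9 in Ctrl (SD, n = 3 each), 1.62-fold higher in CKO, with a log2 fold change of 0.69 (SE 0.21, 95% interval 0.21 to 1.17), adjusted p = 0.32 in limma. All 3 pairs were higher in CKO, by 0.81, 0.78 and 0.49 on the log2 scale.

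The dimmer Gimap5 probe did not separate the groups. Its intensities were 125.7, 294.5 and 174.8 in CKO, against 130, 159.1 and 126.6 in Ctrl, with the CKO array of replicate 1 the lowest of all 6 and that of replicate 2 the highest. The log2 fold change was 0.44 (SE 0.33, 95% interval -0.34 to 1.21), adjusted p = 0.89 in limma over 14811 probes, and the pairs gave -0.05, 0.89 and 0.47. Taking the mean of both probes, the log2 fold change of Gimap5 was 0.56 with an adjusted p of 0.56 in limma, under the 1.5-fold limit, so the study's rule was met by the brighter probe and not by the gene as a mean. Gimap3 is a close relative of Gimap5 for which RefSeq lists the symbol Gimap5 as an older name, and with no probe sequences to hand it was not tested which of these genes each probe detects.

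Gimap1, which mice need to keep mature T and B cells, differed little between the groups by its brighter probe. That probe gave 2207.9, 1983.4 and 2500.2 in CKO, against 2327, 2170.7 and 2113.2 in Ctrl, and the groups interleaved. The log2 fold change was 0.01 (SE 0.21, adjusted p = 1 in limma), and its 95% interval of -0.48 to 0.50 did not reach 1.5-fold in either direction. The dimmer Gimap1 probe gave 454.1, 516.2 and 434.3 in CKO, against 404.8, 321.2 and 406.4 in Ctrl. Here all CKO arrays were above all Ctrl arrays, yet the log2 fold change of 0.32 (SE 0.23, 95% interval -0.21 to 0.84, adjusted p = 0.87 in limma) did not meet either threshold.

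Gimap8, a large member of the family with more than one GTPase domain, was read by 1 of its 3 probes. That probe gave 538.8, 465 and 519.1 in CKO, against 692.4, 631.1 and 608 in Ctrl, with no overlap between the groups. The means were 508 ± 38.2 in CKO and 644 ± 43.6 in Ctrl (SD, n = 3 each), and the log2 fold change was -0.34 (SE 0.21, 95% interval -0.82 to 0.13, adjusted p = 0.79 in limma). The other 2 Gimap8 probes lay between -10.06 and -0.2462 on every array and were not above background on any of them.

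Gimap9, read by 1 probe, had intensities of 138.4, 135.2 and 175.3 in CKO, against 168, 204.7 and 194.3 in Ctrl. Its groups overlapped, since the CKO array of replicate 3 was above the Ctrl array of replicate 1, and the log2 fold change was -0.34 (SE 0.22, 95% interval -0.86 to 0.17, adjusted p = 0.83 in limma). In each of the 3 pairs the CKO array was lower for both Gimap8 and Gimap9. The intervals of both hold 0 as well as 1.5-fold lower.

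Gimap4, which in mice hastens the death of T cells, read at background by its probes. The brighter of its 2 probes read 4.477, 1.513 and 0.5343 in CKO, against 6.987, -4.119 and -0.1435 in Ctrl, and was above background only on the Ctrl array of replicate 1. The other probe was above background on no array. Gimap4 therefore has no fold change here, and whether its probes detect the transcript was not tested. Over single probes, 3 of the 8 kept Gimap probes met the study's rule, those of Gimap6 and Gimap7 and the brighter one of Gimap5, against 7.14% of all kept probes. With the replicate block the Gimap7 probe had an adjusted p of 0.040 in limma, and 1.06% of all probes passed.

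**Figure D2:**
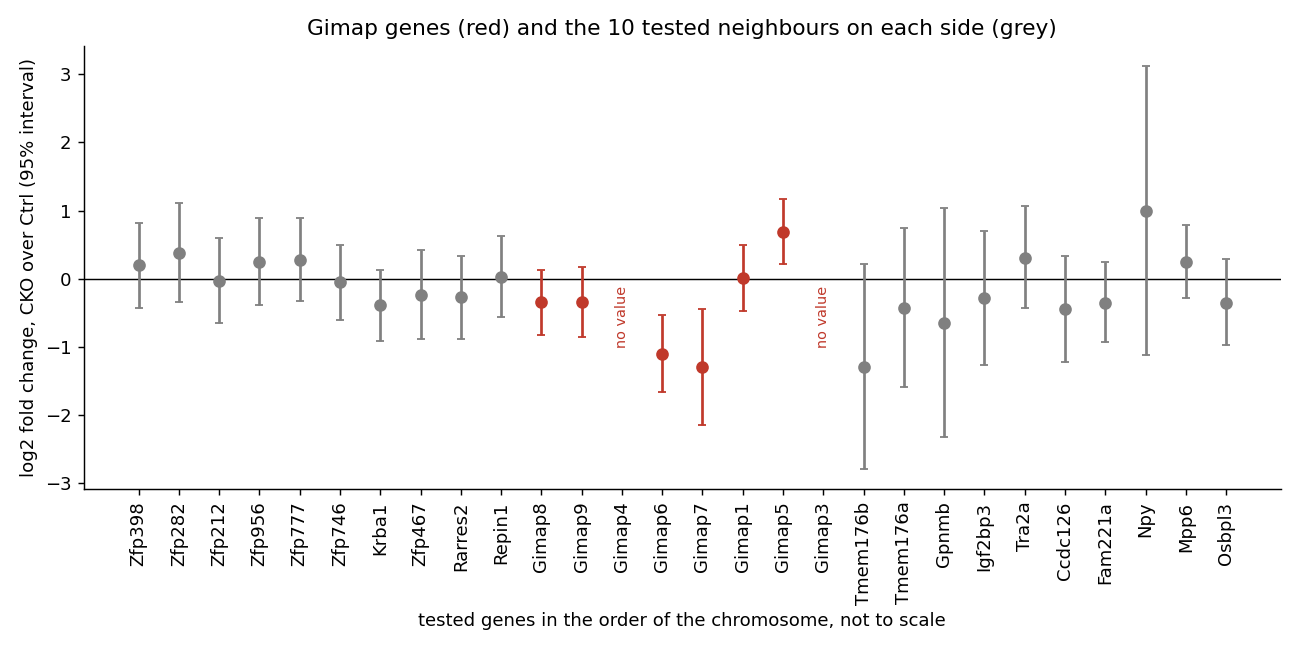
Log2 fold change, CKO over Ctrl, with 95% intervals, of the tested Gimap genes and of the 10 nearest tested genes on each side, in chromosome order (not to scale). Gimap6 and Gimap7 are neighbours and both lie below 0, Gimap5 lies above 0, and the 20 flanking genes run from -1.29 to 1 around a median of -0.14.

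Along the chromosome the differences did not run one way. Gimap6 and Gimap7 lie next to each other, while Gimap1 and then Gimap5 follow Gimap7, with log2 fold changes of -1.10, -1.30, 0.01 and 0.69 in that order. Of the 20 nearest tested genes outside the cluster, 10 on each side, 0 met the study's rule in limma without the block, where 7.42% of all genes did, and 0 had an unadjusted p under 0.05. Their log2 fold changes had a median of -0.14 and ran from -1.29 for Tmem176b, a membrane protein, to 1 for Npy, a neuropeptide. Both of these met the rule in the blocked fit, as 10% of the flanking genes, against 12% of all tested genes there. Their adjusted p-values in that limma fit were 0.26 and 0.083, and they are named because of those values.

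The unequal change of the members can be read within each array, where the difference between 2 members on the log2 scale does not depend on how bright the array was. Gimap5 minus Gimap6 was -0.48, -0.49 and -0.45 in CKO, against -2.76, -1.97 and -2.06 in Ctrl, a shift of 1.79 between the group means. Gimap5 minus Gimap7 shifted by 1.99, with values of 0.91, 1.20 and -0.04 in CKO, against -1.41, -0.92 and -1.58 in Ctrl. Gimap6 minus Gimap7 shifted by 0.20, with overlapping groups, and Gimap8 minus Gimap9 by 0.00. The groups did not overlap for 11 of the 15 member pairs, against 14.1% of all pairs of tested genes, and each of the 11 had an exact two-sided permutation p of 0.1, the smallest that 3 arrays against 3 can give (0.14 after Benjamini-Hochberg adjustment over the 15 pairs). These pairs share members and are not independent of the fold changes given above.

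**Figure D3:**
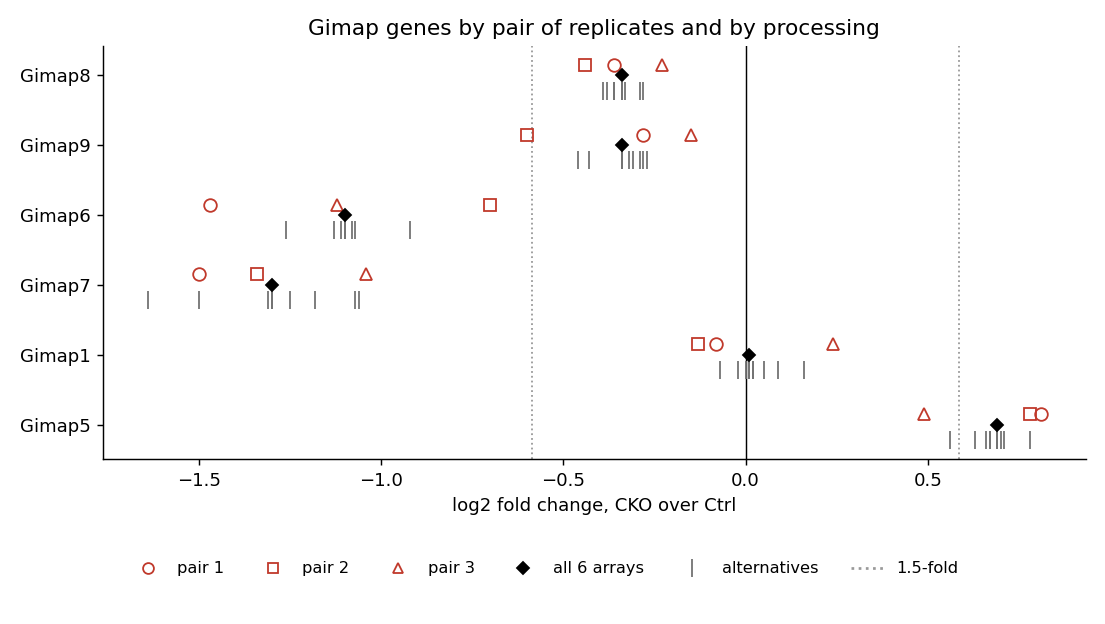
Log2 differences, CKO minus Ctrl, of each tested Gimap gene in the 3 pairs of equal replicate number, and its log2 fold change under each way of processing the values (short vertical lines), with dotted lines at 1.5-fold. All 3 pairs and all settings lie below 0 for Gimap6 and Gimap7 and above 0 for Gimap5, while Gimap1 lies on both sides of 0.

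Of the family's wider surroundings, genes of autophagy, the process Gimap6 is tied to, showed no member past either threshold or at an unadjusted p under 0.05. The study's rule was met by 7.42% of all tested genes and the adjusted threshold by 0.271%, so 0 in a list this short says little. The 18 of 23 listed autophagy genes that were tested had log2 fold changes from -0.56 for Atg10 to 0.53 for Atg4b, with a median of -0.13. Gabarapl1, a close relative of the protein that GIMAP6 binds, had 0.42 (adjusted p = 0.71 in limma).

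Of the Bcl2 family, which sets the threshold for cell death and with which Gimap proteins have been reported to interact, 13 of 18 listed genes were tested, and 2 were higher and 1 lower by the study's rule, which 7.42% of all tested genes met. With the replicate block 2 were higher and 2 lower, and 12% of all genes met the rule. The median log2 fold change of the 13 was -0.30. Bcl2, which protects lymphocytes from death, rose in CKO, with a mean intensity of 137 ± 20.6, against 24.5 ± 8.33 in Ctrl, higher by 2.53 on the log2 scale (adjusted p = 0.028 in limma). That adjusted p was 0.0069 with the replicate block and 0.054 with the slide as a block, which lost the call, and with 1 array left out it held only without Ctrl replicate 2 (adjusted p from 0.044 to 0.53, log2 fold change from 1.48 to 2.77). Bbc3, which promotes cell death, had 34.7 ± 9.27 in CKO and 64.2 ± 11.4 in Ctrl (log2 fold change -0.91, adjusted p = 0.32 in limma). Bik, also a promoter of cell death, was at 61.7 ± 12.4 in CKO and 38.9 ± 11.0 in Ctrl (log2 fold change 0.69, adjusted p = 0.60 in limma), and met the study's rule in 2 of the 6 fits with 1 array left out.

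Genes that mark or maintain T cell quiescence, the resting state in which GIMAP genes are highly expressed, numbered 25 in the list used, of which 18 were tested. By the study's rule 4 were lower and 1 higher, against 4.34% lower and 3.09% higher of all tested genes, and the median log2 fold change of the 18 was -0.44, against 0.02 over all genes. At an adjusted p under 0.05 in limma 1 was lower, where 0.271% of all genes passed, or 3 with the replicate block (Tsc22d3, Foxp1 and Klf2), where 1.91% did. Tsc22d3, a glucocorticoid-induced leucine zipper protein, read 25.1, 19.1 and 14.4 in CKO, against 84.6, 75.8 and 64.7 in Ctrl, and fell in CKO with a log2 fold change of -1.97 (SE 0.27, adjusted p = 0.039 in limma). Its adjusted p was 0.0095 with the replicate block and 0.046 with the slide block. With any 1 array left out it was 0.11 to 0.16, with the study's rule met in 6 of 6 such fits. Foxp1, a transcription factor that holds T cells at rest, had a mean of 61.4 ± 22.6 in CKO and 196 ± 48.4 in Ctrl, and differed by -1.72 on the log2 scale (adjusted p = 0.14 in limma, 0.015 with the replicate block and 0.059 with the slide block).

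Klf2, a transcription factor of resting and recirculating T cells, had 41.5 ± 14.3 in CKO and 96.7 ± 41.6 in Ctrl (log2 fold change -1.18, adjusted p = 0.44 in limma, 0.035 with the replicate block and 0.28 with the slide block), and met the study's rule in 3 of the 6 fits with 1 array left out. Txnip, a thioredoxin-binding protein that limits glucose uptake, had 274 ± 62.7 in CKO and 454 ± 97.3 in Ctrl (log2 fold change -0.73, adjusted p = 0.48 in limma). It too met the rule in 3 of 6. Runx1, a transcription factor of T cell development, was the 1 listed gene that was higher by the study's rule (log2 fold change 0.82, adjusted p = 0.51 in limma).

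**Figure D4:**
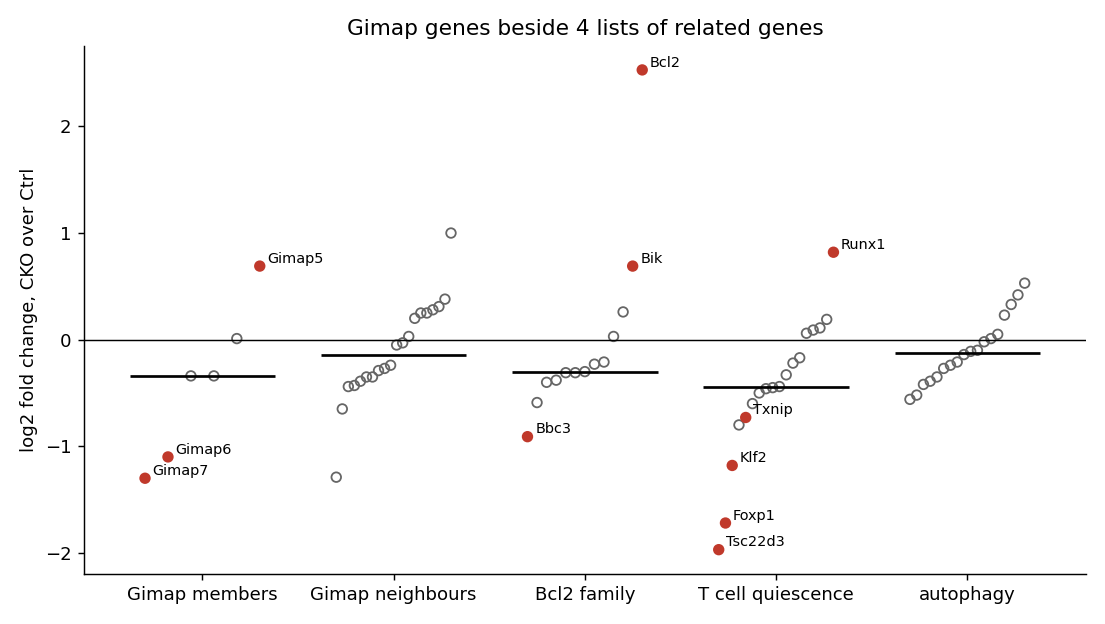
Log2 fold change, CKO over Ctrl, of each tested gene of the Gimap family, the genes flanking the cluster and the autophagy, Bcl2 family and T cell quiescence lists, as 1 point a gene, with the list's median as a line and the genes that met the study's rule in red with their names. The medians are -0.34 for the 6 Gimap genes, -0.14 for the flanking genes, -0.13 for autophagy, -0.30 for the Bcl2 family and -0.44 for quiescence.

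The genes most like the family mean were sought by the Pearson correlation, over the 6 arrays, with the mean of the 6 members' standardized log2 values. It joins members that went in opposite directions, so it is not a pattern that each member showed. That mean was -0.43, -0.84 and 0.18 in CKO, against 0.48, 0.21 and 0.40 in Ctrl, with CKO replicate 3 close to the Ctrl arrays. Of 7070 other genes above background on all arrays, 10 had a correlation above 0.95. The first 3 were B4galt7, an enzyme of proteoglycan synthesis (r = 0.987), Flot1, a membrane scaffold protein (r = 0.980), and Vps26a, a subunit of the retromer (r = 0.972). B4galt7 read only 10.88 to 23.95, close to the background of 6.18 to 9.55. Flot1 averaged 155 ± 51.5 in CKO and 282.5 ± 39.4 in Ctrl, a log2 fold change of -0.91 that met the study's rule (adjusted p = 0.37 in limma). The arrays share genotype and slide, so these correlations are a description with no test.

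The arrays were also read for the cells they held. Prdm1 had intensities of 561, 341 and 704 in CKO, against 18.9, 50.9 and 49.2 in Ctrl, higher in the cells labelled as lacking it. Its log2 fold change was 3.82 (adjusted p = 0.028 in limma, 0.052 to 0.14 with any 1 array left out). The study also lists Prdm1 among the genes raised in both Blimp1-deficient pTreg and effector T cells. It cites earlier reports of direct repression of Prdm1 by Blimp1 in other cell types, which was not tested here. Since the place of its probe relative to the floxed part is not known here, Prdm1 does not check the labels. All 8 named T cell markers were above background on all 6 arrays, and their summed intensity was 17718.1 to 20829.5 in CKO and 21097.1 to 27404.5 in Ctrl. All 6 named markers of regulatory T cells were too, with sums of 5771.7 to 7197.8 in CKO and 10802.9 to 15125.8 in Ctrl. Both sums were lower in CKO without overlap, and rest mostly on the brightest probes. Of the T cell markers 6 had a log2 fold change below 0 and 2 above it (Cd28 and Thy1), with 1, Lat, lower by the study's rule. Of the regulatory T cell markers 4 were below 0 and 2 above it, with Ctla4, Tnfrsf18 and Ikzf2 lower by the study's rule (-1.12, -1.23 and -1.45) and Foxp3 and Nrp1 at 0.03 and 0.26. Of all tested genes 47.6% were below 0 and 4.34% were lower by that rule. None of these markers passed an adjusted p of 0.05 in limma, and their part in the differences of the Gimap genes was not tested. In sorted bulk cells, fewer cells with a transcript and less of it per cell cannot be told apart.

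Markers of other cells that make GIMAP proteins were mostly near background. Of 4 named B cell markers 0 were above background on all arrays, with sums of 18.0 to 26.2 in CKO and 15.0 to 28.4 in Ctrl. Of 6 endothelial markers 4 were above background on no array and Pecam1 alone on all, with list sums of 69.4 to 97.4 in CKO and 41.6 to 68.0 in Ctrl. Pecam1 was higher in CKO by the study's rule (log2 fold change 1.21, adjusted p = 0.32 in limma), as were 3.09% of all tested genes. Kdr, the other endothelial marker tested, had a log2 fold change of 0.01. Of 4 natural killer cell markers 0 were above background on all arrays (sums of 28.7 to 85.6 in CKO and 21.5 to 119.8 in Ctrl). Of the CD8 T cell markers Cd8a was on no array above background and Cd8b1 on all, with a summed level of 544.2 to 934 in CKO and 655.9 to 1030.6 in Ctrl.

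Myeloid markers varied with the replicate, 4 of 7 named ones being above background on all arrays and 2 on none. Their sum was 1722.6 to 21981 in CKO and 2511.1 to 31225.8 in Ctrl, lowest in replicate 2 and highest in replicate 3 of each group, the order that Gimap7 showed. Red cell markers summed to 563 to 1634.9 in CKO and 538.9 to 1898.6 in Ctrl, in the same order over the replicates. Of 5 myeloid markers tested, 4 had a log2 fold change below 0 and 0 above it, with a median of -0.65. Of all tested genes 47.6% were below 0. S100a8 and S100a9 were lower in CKO in each pair, while Lyz2 and Mpo were higher in CKO in replicate 2. The 2 red cell markers tested were below 0, with a median of -0.61. None of these markers met either threshold, and their part in the level of Gimap7 was not tested.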

How the data were processed

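Normalized probe intensities were used as deposited: per the labels and methods, the authors extracted them from Illumina MouseWG-6 v2 arrays and quantile normalized them (35.4 to 36.0% of values are below 0). Sorted values differed by at most 0.564 between arrays of 1 slide and by up to 8241 between the 2 slides, so quantile normalization was repeated over all 6 arrays. The background level of an array was set at the 95th percentile of its 1504 probes for olfactory or vomeronasal receptors. Values were raised to it, and probes above it on at least 2 arrays were kept (14811 of 45281). The platform annotation gave 34885 probes 1 symbol, 18 several and 10378 none, and 34807 matched RefSeq. A gene was read by its brightest kept probe. Groups were compared on the log2 scale in limma 3.58.1 (R 4.3.3), with Benjamini-Hochberg adjustment over 9593 genes. The study's thresholds were p under 0.05 and 1.5-fold. Intensities are given as means and SD, and the number of arrays limits the precision. Equal replicate numbers paired the arrays. Deviations from the group means correlated within each pair (r = 0.51, 0.49 and 0.56) and otherwise lay between -0.31 and -0.23. Deviations from a mean of 3 arrays add up to 0, so a positive r within a pair forces lower values elsewhere. The negative values are therefore no separate evidence for the pairing. The pairing comes from a date shared in the labels for replicates 2 and 3, and from the slide for replicate 1.

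The text names every member, up to 4 genes from each list (those at an adjusted p under 0.05, then those at the study's thresholds, by p), flanking genes at the study's thresholds, Prdm1 and the 3 genes most like the family mean. Tmem176b, Npy, Runx1, the autophagy examples and the named T cell, endothelial and myeloid markers were added after their values were seen. The members and lists were chosen with earlier results of these data known. The limma scripts were tested on simulated data.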

Additional observations from a re-analysis of the deposited data

How the results depend on the processing

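Gimap6 and Gimap7 met the study's thresholds under all 15 alternatives listed beforehand, with log2 fold changes of -1.26 to -0.92 and -1.64 to -1.06, and adjusted p-values of 0.055 to 0.42 and 0.030 to 0.58 in limma. Gimap5 met them under 14, and over all 15 its log2 fold change ran from 0.56 to 0.78 (adjusted p from 0.13 to 0.58 in limma). With the mean of all kept probes, 0 members were higher by those thresholds, against 1 with the brightest probe, by the construction of that mean. With the replicate block 1 member passed the adjusted threshold, Gimap7, against 0 without it, and 1 also passed with the block and without both arrays of replicate 3, which was chosen after seeing the data. The block changed no other member's call. It moved the count of all genes at an adjusted p under 0.05 to 183, against 26 without it, and that at the study's thresholds to 1154, against 712. Leaving out 1 array at a time gave 0 members past the adjusted p, 2 lower and 1 higher by the study's thresholds each time, and a median log2 fold change of -0.41 to -0.28. Gimap8 and Gimap9 stayed lower under all 15 and met no threshold (-0.39 to -0.28 and -0.46 to -0.27), and Gimap1 ran from -0.07 to 0.16. Gimap4 entered only with no filter on low values (log2 fold change 0.03, adjusted p = 0.96 in limma). Signal close to background limits Gimap4, and 3 arrays a group limit every value.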
